A study of Mus musculus with 6 samples.

Results

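The pancreatic chymotrypsins and elastases are 7 mouse genes of the S1 serine protease family. They are Ctrb1, Ctrc and Ctrl among the chymotrypsins and Cela1, Cela2a, Cela3a and Cela3b among the elastases. They were taken from a fixed list of symbols, matched to the Ensembl identifiers of the count tables, and make up 7 of the 55414 genes listed there. All 7 passed the filter on low counts. Poly-A RNA was sequenced from 6 untreated preparations of acinar cells from the pancreas of adult mice, 1 library each. Tumour cell lines that the growth protocol mentions were not analysed here. The 3 control preparations had the genotype Pdx1Cre;Trip12+/+ and the 3 knockout preparations Pdx1Cre;Trip12fl/fl, so that both groups carried the Cre transgene and differed by label in the floxed allele of Trip12, an E3 ubiquitin ligase. The Pdx1 promoter is active in the progenitors of the whole pancreas, so that duct and islet lineages are also targets of this Cre. Strain, sex and pooling of animals are not given in the labels, and the labels call the preparations biological replicates without saying whether each is 1 animal, so p-values measure the spread between these samples.

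Acinar cells make these proteases as inactive zymogens, store them in granules and secrete them into the duct. In the duodenum trypsin removes the propeptide. Chymotrypsins then cut proteins mainly after large hydrophobic and aromatic residues, and some elastases mainly after small aliphatic ones. Transcription of this gene set in acinar cells is known to depend on the PTF1 complex, formed by the factor PTF1A, a common E protein and RBPJL, which binds an E-box together with a TGGGAA-type core. Its known binding sites include enhancers of rodent elastase and chymotrypsin genes.

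The sequences upstream of the members are shown because the members are read together here and because Cela3a and Cela3b are close copies with very different counts. RefSeq's promoter table of build GRCm38.p6 had an entry for 6 members, all but Ctrc. The 250 bases before the annotated start are printed for the most abundant member, for Cela2a and for the Cela3 pair, with capitals on CACCTG and TGGGAA or their reverse complements.
Ctrb1 (chr8:111691011-111691260, minus strand): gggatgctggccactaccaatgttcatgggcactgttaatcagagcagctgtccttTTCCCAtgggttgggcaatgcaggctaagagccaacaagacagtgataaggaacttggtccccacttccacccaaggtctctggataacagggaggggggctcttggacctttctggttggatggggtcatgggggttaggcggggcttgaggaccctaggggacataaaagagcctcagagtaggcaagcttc
Cela2a (chr4:141826006-141826255, minus strand): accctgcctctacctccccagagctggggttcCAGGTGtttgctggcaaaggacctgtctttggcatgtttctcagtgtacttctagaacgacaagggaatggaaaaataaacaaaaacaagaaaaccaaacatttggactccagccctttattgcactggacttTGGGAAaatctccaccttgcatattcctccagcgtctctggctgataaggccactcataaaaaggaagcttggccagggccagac
Cela3a (chr4:137409792-137410041, minus strand): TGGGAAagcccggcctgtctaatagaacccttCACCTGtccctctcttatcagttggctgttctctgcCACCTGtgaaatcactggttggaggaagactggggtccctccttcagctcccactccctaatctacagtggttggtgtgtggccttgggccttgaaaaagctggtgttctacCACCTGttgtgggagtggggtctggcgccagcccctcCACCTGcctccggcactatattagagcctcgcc
Cela3b (chr4:137430521-137430770, minus strand): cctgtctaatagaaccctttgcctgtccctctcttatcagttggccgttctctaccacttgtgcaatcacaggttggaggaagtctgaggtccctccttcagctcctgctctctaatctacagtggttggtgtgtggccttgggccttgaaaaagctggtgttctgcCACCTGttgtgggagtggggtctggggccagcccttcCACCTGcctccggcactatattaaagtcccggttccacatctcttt
The general E-box CANNTG was found in 6 of the 6 promoters and in 66.2% of all 32851 promoters of the table at the same length. Its form CACCTG, searched on both strands and chosen after the sequences were seen, was in 5 of the 6, all but Ctrb1, against 17.2% of all promoters. The form CAGCTG was in 3 of the 6 (Ctrb1, Ctrl and Cela1) against 13%. The TGGGAA core was in 4 of the 6 (Ctrb1, Ctrl, Cela2a and Cela3a) against 21.6%. In Cela3a it forms the very first bases of the window. The Cela3b window begins further into the shared sequence, so the matching Cela3b position lies outside its 250 bases and was not examined. CANNTG and TGGGAA stood together in the same 4 promoters against 14.8%, and CACCTG with TGGGAA in 3 (Ctrl, Cela2a and Cela3a) against 3.91%. Together means anywhere in the 250 bases, with no rule on spacing. In Ctrb1 CAGCTG and TTCCCA begin 205 and 194 bases before the start. In Cela2a CAGGTG begins at 218, CATTTG at 119 and TGGGAA at 85. Binding of PTF1 to these motifs was not tested. Both CACCTG and CAGCTG are counted within CANNTG. The Cela3a and Cela3b promoters were identical at 219 of 237 aligned bases (92.4%).

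The Cela3 pair also bears on how far the counts can be trusted. Their transcripts in GENCODE M21, an annotation of build GRCm38, were 94.5% identical with a longest identical run of 163 bases, whereas every other pair of members was 60.8% to 66.6% identical. The 100 coding bases in which both differ most are shown, from base 216 to base 315 of each coding sequence, with the 15 differing bases in capitals.
Cela3a: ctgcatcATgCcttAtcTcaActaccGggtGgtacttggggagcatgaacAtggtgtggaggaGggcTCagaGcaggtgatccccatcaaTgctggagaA
Cela3b: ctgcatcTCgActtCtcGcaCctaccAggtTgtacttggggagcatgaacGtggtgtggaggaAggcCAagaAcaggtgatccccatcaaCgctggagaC
Elsewhere the copies are closer, and 12.1% of all 100-base windows of the Cela3a transcript and 12.6% of those of Cela3b occur in both. A read lying wholly in such a window cannot be given to either copy. Cela2a has a different overlap. Its 1070-base transcript shares 305 bases (28.5%) with exons of Ctrc or Casp9 in GENCODE M21. Reads there count as ambiguous if the authors' annotation has the same models, which is not stated. No exon bases of other genes and no shared windows were found for the main transcripts of Ctrb1, Ctrc, Ctrl and Cela1.

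Libraries held 31019500 to 34041901 gene counts. Trip12, the targeted gene, stood at 29.0, 22.3 and 26.4 CPM in controls 1 to 3 and at 14.4, 14.7 and 13.0 CPM in knockouts 1 to 3, with no overlap. Its log2 fold change was -0.89 (SE 0.14) and its Benjamini-Hochberg adjusted p 0.0256 in the quasi-likelihood F test of edgeR, the test meant by edgeR below. CPM is a gene's count scaled to a common library size with TMM factors, which correct for genes taking unequal shares of a library. The TMM factors ran from 0.785 to 1.02 in control and from 1.12 to 1.19 in knockout, so that values of very abundant genes depend on this choice. Control replicate 1 and the 3 knockouts had 3 to 5 Xist counts and 1205 to 1784 counts over 4 Y-linked genes, and control replicates 2 and 3 had 2118 and 2440 Xist counts and at most 3 Y-linked counts. Sex and genotype were therefore partly confounded. Leukocyte markers summed to 22.9 to 109 CPM over the controls and 19.0 to 77.2 CPM over the knockouts, islet markers to 352 to 459 and 242 to 909 CPM, and duct markers to 340 to 400 and 297 to 410 CPM, each group range overlapping the other. Stromal and endothelial markers summed to 36.5 to 169 and 46.4 to 181 CPM, and genes of the dissociation response to 78.3 to 604 and 122 to 766 CPM. Adipocyte markers stayed at or below 17.2 CPM, with Adipoq, Lep and Retn at 0 counts. These sums lie far below the 249000 to 418000 CPM of the 7 members together. Their part in the results was not tested. Fewer acinar cells and less RNA per cell cannot be told apart in such bulk samples.

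All 7 members had a lower mean CPM in knockout than in control, although Ctrb1 and Cela1 turned to log2 fold changes of 0.11 and 0.02 when library totals replaced the TMM factors. For 6 members, all but Ctrb1, every knockout library lay below every control, and for 5, not Cela1 either, also with library totals.  The median log2 fold change was -0.71 over the 7 members and 0.02 over all 13115 tested genes. Over all tested genes 10.9% lay lower and 12.0% higher without overlap in TMM-scaled CPM, and 47.6% had a negative log2 fold change. No such shares were taken with library totals, where the median log2 fold change over all tested genes was 0.43. edgeR called 0 of the 7 at an adjusted p under 0.05, against 0.945% of all tested genes (124 genes, 0.48% lower and 0.465% higher). At an unadjusted p under 0.05 there were 5 of 7 (Ctrl, Cela1, Cela2a, Cela3a and Cela3b), all lower, against 16.7% of all tested genes in either direction and 8.27% lower. The DESeq2 Wald test called 4 (Ctrl, Cela2a, Cela3a and Cela3b) against 2.56% of its tested genes lower, and limma-voom called 0 against 0.374%. With the replicate number as a block, edgeR called 1 of the 7, Cela2a, against 5.99% of all tested genes (785 genes, 2.58% lower). Cela2a was also the 1 member called with upper quartile factors, without a filter, with at least 10 counts in every library, on either strand's counts and with the block and no pair 1, where 0.473%, 1.45%, 0.9%, 0.666%, 0.58% and 1.42% of tested genes were called lower. Library totals called Cela2a and Cela3a (0.587% lower), and the block without pair 3 called Ctrc, Cela2a and Cela3a (2.64% lower). Of the fits without 1 library, that without control 1 called 4 members (1.88% of genes lower), that without knockout 3 called Ctrc (0.102%), and the others called 0, with 0.1%, 0.245%, 0.127% and 0.4% of genes lower without control 2, control 3, knockout 1 and knockout 2. The fits with DESeq2 size factors (0.488% lower), with the enzymes left out of library sizes (0.473%) and with the block and no pair 2 (0.43%) also called 0. Without control 1 or pair 1, all controls left differed from the knockouts in Xist and Y-linked counts, so sex and genotype were fully confounded. The most abundant genes of these libraries had values of the same kind as the members. Among the 31 other tested genes with a mean of at least 1000 CPM, 28 had a negative log2 fold change and their median was -0.49, against 18 and -0.06 with library totals, where the members' median was -0.27. In TMM-scaled CPM, 15 of these 31 genes lay lower in every knockout than in every control.

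**Figure D1:**
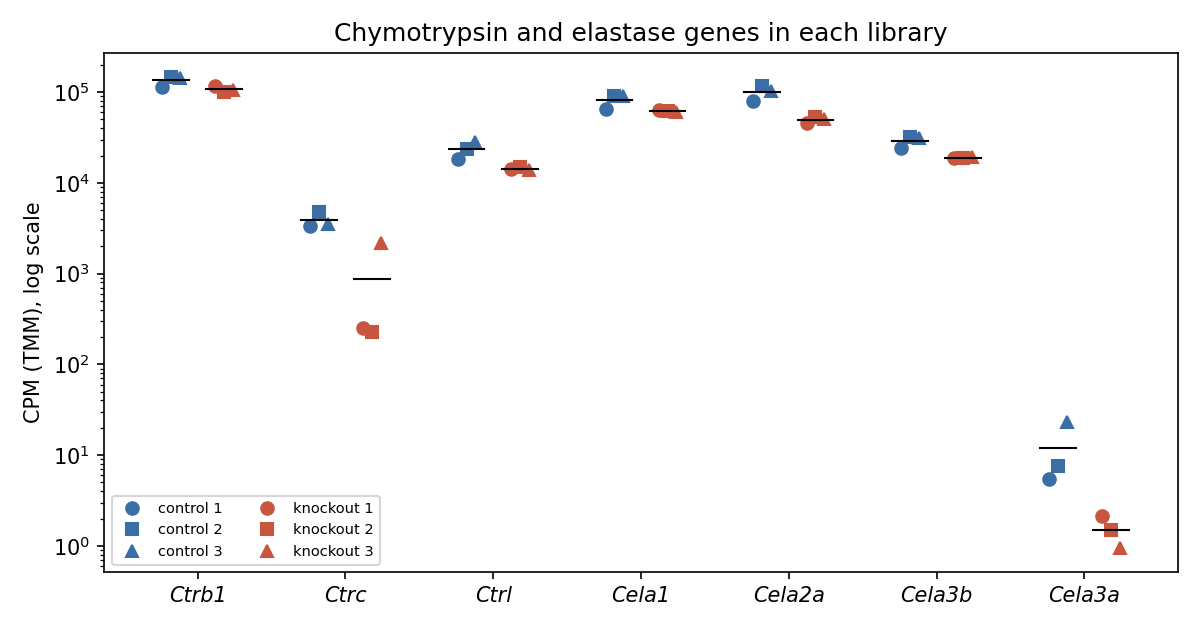
TMM-scaled CPM of the 7 members on a log axis, with 1 marker per library (blue for control, red for knockout, marker shape for the replicate number) and a black bar at the group mean. The groups do not overlap for Ctrc, Ctrl, Cela1, Cela2a, Cela3a and Cela3b on this scaling, and with library totals they overlap for Cela1 too, as they do for Ctrb1 under both.

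Ctrb1, the main chymotrypsinogen of mouse pancreas, was the most abundant of all 13115 tested genes by counts. Controls 1 to 3 gave 115248, 148557 and 141946 CPM, and knockouts 1 to 3 gave 117452, 100166 and 106279 CPM. Control replicate 1 lay below knockout replicate 1, so the groups overlapped. The control mean was 135250 ± 17635 CPM (SD, n = 3) and the knockout mean 107966 ± 8766 CPM, for a log2 fold change of -0.33 (SE 0.17, adjusted p 0.394 by edgeR). As a plain share of gene counts Ctrb1 took 11.6% ± 0.123 in control and 12.5% ± 1.40 in knockout. Its direction turned with the scaling, and the groups overlapped under both.

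Ctrl, a chymotrypsin-like protease also called chymopasin, measured 18259, 23610 and 28224 CPM in the controls, against 14254, 14988 and 13721 CPM in the knockouts. Every knockout library lay below every control, with a spread of 4.44% of the mean in knockout and 21.3% in control. The log2 fold change was -0.71 (SE 0.19, adjusted p 0.131 by edgeR). The exact two-sided permutation p was 0.1, the smallest that 3 against 3 allows. Without control replicate 1 the log2 fold change was -0.88 (SE 0.13, adjusted p 0.0162 by edgeR). The controls left in that fit all differed from the knockouts in Xist and Y-linked counts, so sex and genotype were fully confounded. Without any other single library the adjusted p by edgeR was 0.276 to 0.384.

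Ctrc, or chymotrypsin C, is known for degrading trypsinogens and trypsin and so limiting trypsin activity inside the pancreas. Controls 1 to 3 held 107421, 116977 and 95958 Ctrc counts, and knockouts 1 to 3 held 9406, 7885 and 80903. On the CPM scale the controls stood at 3384, 4805 and 3488, the knockouts at 252, 225 and 2170. The knockout group held 2 levels. Replicates 1 and 2 stood at 6.47% and 5.78% of the control mean, and replicate 3 at 55.8%. The mean of knockout replicates 1 and 2 was 16.3-fold below the control mean, and knockout replicate 3 was 9.10-fold above them. The lowest of these libraries still held 7885 counts, so counting error is small beside the split. The fit of all 6 libraries gave -2.14 on the log2 scale (SE 1.04, adjusted p 0.396 by edgeR). Without knockout replicate 3, the library that stands apart, the log2 fold change was -4.03 (SE 0.29, adjusted p 0.00682 by edgeR). Leaving out knockout replicate 1 or 2 instead gave -1.7 and -1.68 (adjusted p 0.611 and 0.531 by edgeR). Set against the control mean, knockout replicate 3 alone differed by -0.84 on the log2 scale, a value with no replicate. RefSeq classes Ctrc of the C57BL/6J reference assembly GRCm38.p6 as a transcribed pseudogene, whereas GENCODE M21 classes it as protein coding, and the other 6 members are protein coding in both. The labels name no strain, and a part of strain in the split was not tested.

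The genes that overlap Ctrc in GENCODE M21 did not show the same split of knockouts 1 and 2 from knockout 3. Cela2a, which lies next to it on chromosome 4 on the same strand, measured 80123, 117168 and 101830 CPM in the controls, against 45377, 52879 and 50824 CPM in the knockouts. Its knockouts all lay below its controls, with knockout 3 between the other two. Ctrcos, classed as antisense, measured 3.91, 4.44 and 2.47 CPM in the controls, against 4.93, 7.45 and 2.90 CPM in the knockouts. Knockouts 1 and 2 were thus its highest libraries, in the direction opposite to Ctrc. Casp9, the initiator caspase of the mitochondrial pathway, measured 77.5, 194 and 56.7 CPM in the controls, against 134, 231 and 86.3 CPM in the knockouts, and did not part knockouts 1 and 2 from the rest. Each library's counts divided evenly between the strands (50.1% to 50.3% forward), so that genes overlapping on opposite strands cannot be told apart by strand.

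**Figure D2:**
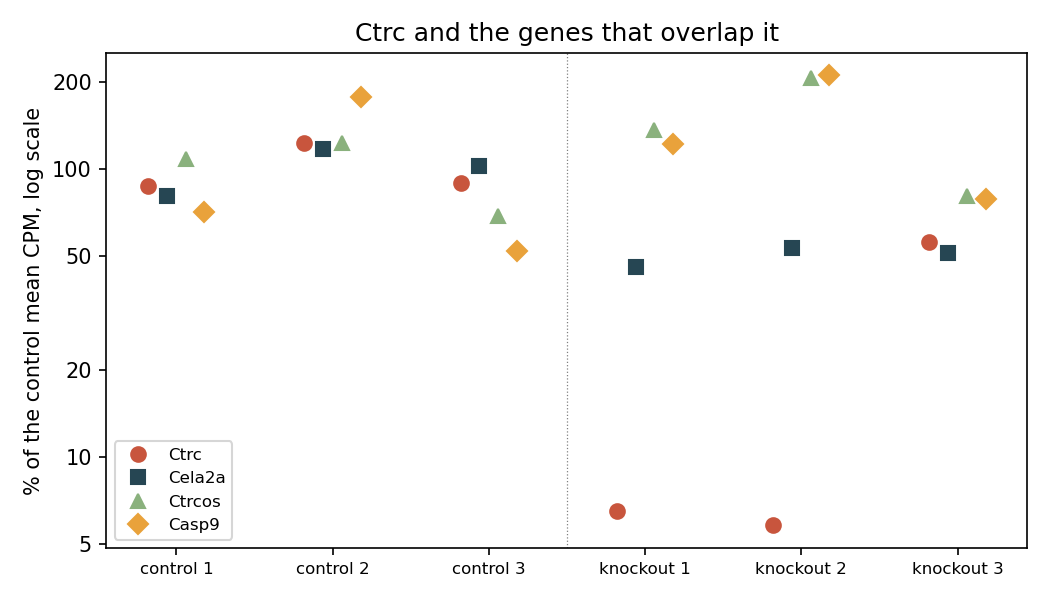
CPM of Ctrc and of the 3 genes that overlap it, as a percentage of each gene's control mean on a log axis, by library. Ctrc stands at 6.47% and 5.78% in knockout replicates 1 and 2 and at 55.8% in replicate 3, while Cela2a lies below its controls in all 3 knockouts at a similar level and Ctrcos is highest in knockout replicates 1 and 2.

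Cela1 encodes elastase 1, an enzyme made in rodent acinar cells and silent in the human pancreas. Controls 1 to 3 gave 65687, 91155 and 91766 CPM, and knockouts 1 to 3 gave 62907, 62261 and 61115 CPM. The knockouts lay at 93.0% to 95.8% of control replicate 1 and well under the other controls. The log2 fold change was -0.42 (SE 0.18, adjusted p 0.296 by edgeR). As a share of gene counts Cela1 took 7.08% ± 0.378 (SD, n = 3) in control and 7.18% ± 0.278 in knockout, with overlap.

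Cela2a, elastase 2, gave the smallest p-value of the 7 members. The controls held 2543738, 2852302 and 2801310 counts, the knockouts 1692925, 1852347 and 1894925. In CPM the controls stood at 80123, 117168 and 101830, the knockouts at 45377, 52879 and 50824. The highest knockout library held 66.0% of the lowest control. The knockout mean was 49.8% of the control mean, and the log2 fold change was -1.0 (SE 0.19). Its adjusted p by edgeR was 0.0522, or 0.0109 with the replicate block. The direction was the same in the 3 numbered pairs, with log2 differences of -0.82, -1.15 and -1.0. It held as a share of gene counts too, at 8.52% ± 0.587 (SD, n = 3) in control and 5.74% ± 0.287 in knockout. Cela2a was called in 11 of 21 alternative fits (adjusted p 1.58e-07 to 0.285), and its log2 fold change ran from -1.17 without control replicate 1 to -0.57 with library totals. With sex as a covariate it was -0.69 (SE 0.17, adjusted p 0.246 by edgeR).

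Cela3b, the main gene of the elastase 3 type, measured 24339, 32287 and 31224 CPM in the controls, against 18775, 18655 and 19269 CPM in the knockouts. No knockout library reached the lowest control, and the knockouts differed among themselves by 1.72% of their mean (SD). The log2 fold change was -0.63 (SE 0.17, adjusted p 0.128 by edgeR). Cela3b took 2.51% ± 0.0334 (SD, n = 3) of gene counts in control and 2.19% ± 0.0858 in knockout, again without overlap.

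Cela3a, its close copy, was almost absent beside it. Controls 1 to 3 held 171, 183 and 643 counts, and knockouts 1 to 3 held 79, 52 and 35. Per 10000 counts of Cela3b the controls held 2.21, 2.33 and 7.49, the knockouts 1.13, 0.796 and 0.487. Control replicate 3 stood apart within its group, and every knockout lay below every control. The log2 fold change was -2.99 (SE 0.70, adjusted p 0.137 by edgeR), and without control replicate 3 it was -2.09 (SE 0.35, adjusted p 0.0751). The Cela3a counts are uncertain, since the transcripts are so alike, and a part of misplaced Cela3b reads in them was not tested.

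**Figure D3:**
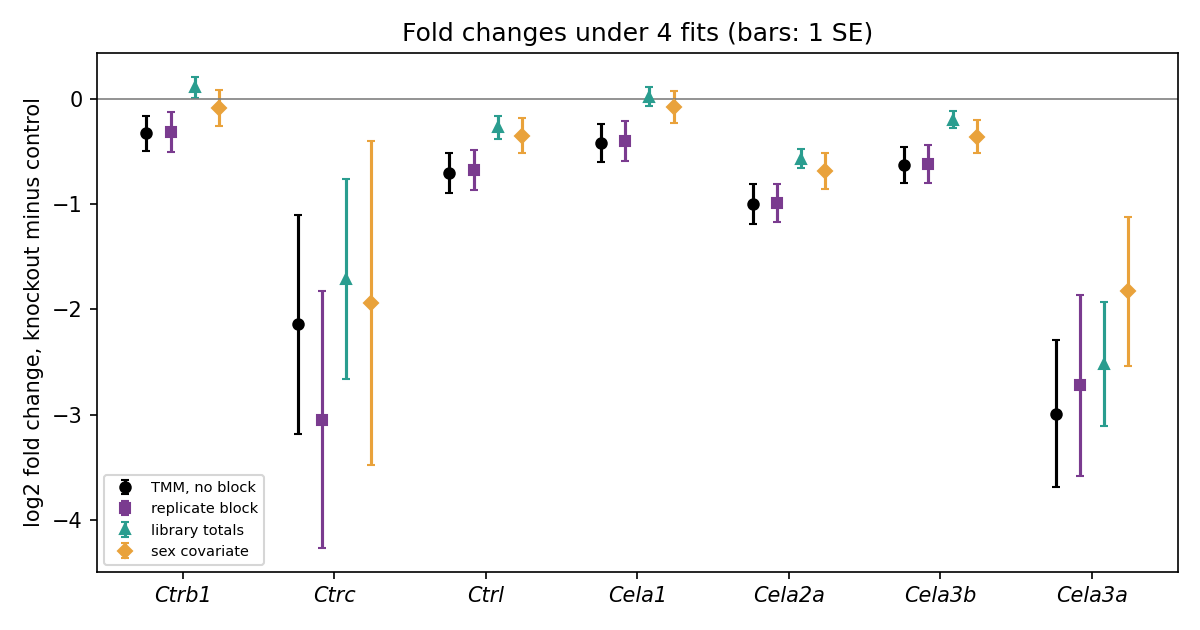
Log2 fold change (knockout minus control, points) with 1 SE (bars) of each member under 4 edgeR fits: TMM scaling with no block, the replicate block, library totals, and a sex covariate. Points lie below 0 except Ctrb1 (0.11) and Cela1 (0.02) with library totals, and the bars of Ctrc and Cela3a are the widest in each fit.

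Levels were also compared per length, as CPM per kilobase of transcript not shared with other genes. In control Ctrb1 came first with 154044 ± 20086 CPM per kilobase (SD, n = 3). Cela2a (130336 ± 24331), Cela1 (74792 ± 13433), Cela3b (31624 ± 4659), Ctrl (26581 ± 5674), Ctrc (4093 ± 833) and Cela3a (12.6 ± 10.3) followed in that order on the same scale. Between libraries the control ranges of Ctrb1 and Cela2a overlapped, as did those of Cela3b and Ctrl, but within each of the 6 libraries, where the scaling is shared, the 7 genes stood in this same order. In knockout Ctrb1 averaged 122968 ± 9984 CPM per kilobase, Cela2a 64959 ± 5068 and Cela1 56042 ± 819. When the full 1070 bases of Cela2a were used, its per-length share of the 7 genes in knockout was 17.7%, below the 21.3% of Cela1, so the order of these genes in knockout rests on the bases taken as countable.

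The make-up of the 7 genes' counts needs no library scaling, since each member is set against the others of its own library. Ctrb1 made up 37.5%, 35.6% and 35.6% in control and 45.3%, 40.2% and 41.9% in knockout. Cela2a made up 26.1%, 28.1% and 25.6% in control and 17.5%, 21.2% and 20.1% in knockout. Ctrb1 and Cela1 took larger parts in every knockout than in every control, and Cela2a, Cela3b, Ctrc and Cela3a smaller ones, while Ctrl overlapped. The parts sum to a fixed whole, so the smaller part of Cela2a by itself makes the parts of the others larger. As shares of all gene counts, Ctrb1 and Cela1 overlapped between the groups. Within the summed counts of the 7 genes, Cela1 went from 22.1% ± 0.846 (SD, n = 3) to 24.5% ± 0.460, and Cela2a from 26.6% ± 1.32 to 19.6% ± 1.89. The log2 ratio of Cela1 to Cela2a counts was -0.29, -0.36 and -0.15 in control and 0.47, 0.24 and 0.27 in knockout, so that Cela2a had the larger count in every control and Cela1 in every knockout. The log2 ratio of Cela2a to Cela3b was 1.76 ± 0.09 in control and 1.39 ± 0.12 in knockout. Taken as classes, elastases outweighed chymotrypsins by 0.38 ± 0.06 on the log2 scale in control and by 0.09 ± 0.13 in knockout, where replicate 1 was at -0.05.

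**Figure D4:**
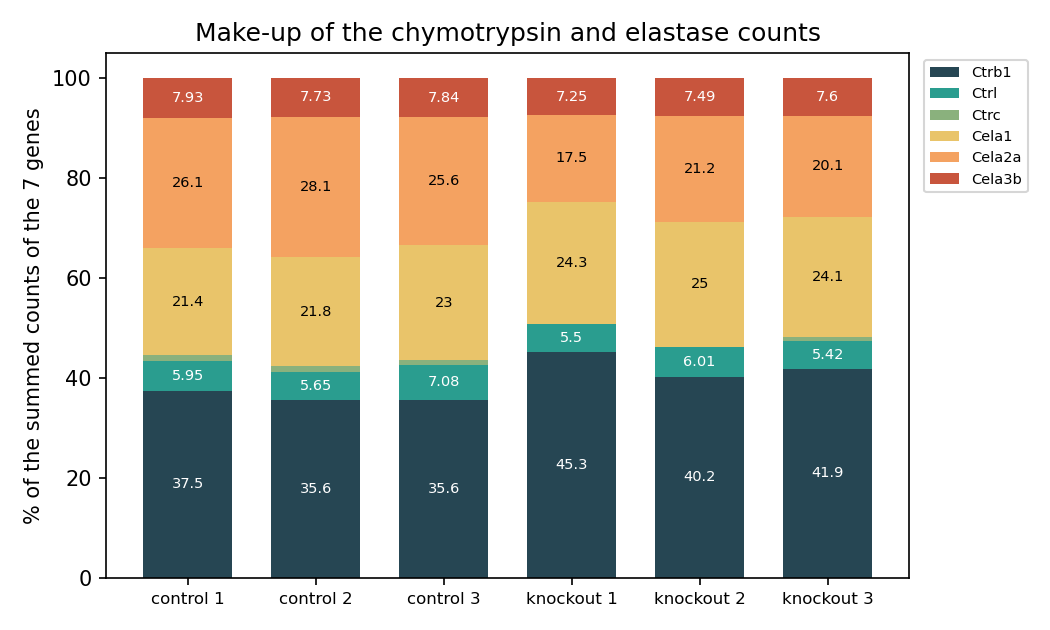
Stacked bars of the percentage of the 7 genes' summed counts taken by each gene in each library, with values over 4% printed (Cela3a, under 0.01%, is not drawn). Cela2a takes 25.6% to 28.1% in control and 17.5% to 21.2% in knockout, and Ctrb1 takes 35.6% to 37.5% and 40.2% to 45.3%.

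Together the 7 genes took 31.2%, 32.8% and 32.2% of all gene counts in controls 1 to 3, against 30.9%, 27.9% and 29.4% in knockouts 1 to 3. In control replicate 1 the exact 95% binomial interval (Clopper-Pearson) was 31.16% to 31.19%, which covers counting error only, as amplified copies are not independent molecules. The controls averaged 32.1% ± 0.807 (SD, n = 3) and the knockouts 29.4% ± 1.49, and the gap between the lowest control and the highest knockout was small. The elastases took 18.1% ± 0.804 in control and 15.1% ± 0.126 in knockout, without overlap, and the chymotrypsins 13.9% ± 0.0805 and 14.3% ± 1.41, with overlap. Per 100 counts outside the digestive enzymes the 7 genes had 120 ± 7.89 counts in control and 98.1 ± 5.99 in knockout. With reads that map to several places added to the denominator, their share was 21.5% ± 0.137 and 21.4% ± 1.61, with overlap. Those reads made up 26.0% to 28.4% of all reads in control and 21.6% to 24.1% in knockout.

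On average the knockouts lay closer to control replicate 1 than to the control mean for all 7 members. It is the only control whose Xist and Y-linked counts match those of the knockouts. The knockouts stood at 86.9% to 102% of that library for Ctrb1, 93.0% to 95.8% for Cela1, 75.1% to 82.1% for Ctrl and 76.6% to 79.2% for Cela3b. They stood at 56.6% to 66.0% for Cela2a, 17.4% to 39.3% for Cela3a and 6.65% to 64.1% for Ctrc. With sex as a covariate the log2 fold changes were -0.09 for Ctrb1, -0.08 for Cela1, -0.35 for Ctrl, -0.36 for Cela3b, -1.83 for Cela3a and -1.94 for Ctrc, and edgeR called 0 of the 7 (21 of all tested genes, and 0.107% of them lower). This fit rests on 1 control with the knockouts' Xist and Y-linked pattern.

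Other genes of the secretory program were read from fixed lists. Of 18 other digestive enzymes, 17 had a negative log2 fold change (median -0.49), but only 11 did with library totals (median -0.06). edgeR called 0 of them, with 11 lower at an unadjusted p under 0.05, against 8.27% of all tested genes. With the block it called 3 lower, the carboxypeptidase gene Cpb1 and the amylase copies Amy2a3 and Amy2a4, whose counts are uncertain because the copies are alike. Of 9 tested trypsinogens and zymogen activators, 4 had a negative log2 fold change and the median was 0.07 (0.47 with library totals). Among these Prss3 was called higher (114 ± 27.3 CPM over the controls, 836 ± 179 CPM over the knockouts, SD, n = 3), and with the block Try5 was called higher and Try10 lower, again near-identical copies. Tmprss15, the duodenal enteropeptidase that activates trypsinogen, had 0 counts in all 6 libraries. Of 11 zymogen granule proteins tested, 8 had a negative log2 fold change (median -0.10, turning to 0.32 with library totals), and Gp2 and Cuzd1 were called lower with the block only. Of 7 tested inhibitors of such proteases the median was 0.05 (0.49 with library totals), and Spink1, the trypsin inhibitor of pancreatic juice, and Serpini2 were called lower with the block only. Of 14 acinar transcription factors the median was -0.18, turning to 0.23 with library totals, and with the block Ptf1a was called lower and Rbpjl higher. Rbpjl, the acinar partner of PTF1A, averaged 214 ± 56.8 CPM over the controls and 505 ± 145 CPM over the knockouts (SD, n = 3), opposite in direction to the 7 members. The proteases of similar specificity from leukocytes and mast cells, such as neutrophil elastase and mast cell chymase, summed to at most 1.45 CPM in any library. In the marker lists of other cell types and dissociation edgeR called 0 of 53 genes (7 were higher and 3 lower by unadjusted p). Under the block Krt7, Spp1, Epcam, Pcsk2, Adgre1, C1qa, C1qb, C1qc, Fabp4 and Hspa1b were higher and Krt19 and Muc1 lower. Over all tested genes 16.7% had an unadjusted p under 0.05 in edgeR (8.27% lower). The block called 5.99% of them (2.58% lower).

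Genes with a profile like that of the members were sought among 3884 other protein-coding genes with a mean of at least 10 CPM. Likeness was the root-mean-square difference between centred log2 CPM profiles over the 6 libraries, which share their scaling. The nearest to the mean of the 7 members were Gp2 (0.16), Dym (0.171), Slc9a3r2 (0.179), Habp2 (0.183) and Cst3 (0.212). Gp2, which encodes the main membrane glycoprotein of zymogen granules, measured 5652, 8008 and 7300 CPM in the controls, against 2764, 2842 and 4339 CPM in the knockouts. Cela2a lay at 0.208 from that mean, Ctrl at 0.315, Cela3b at 0.334, Cela1 at 0.440 and Ctrb1 at 0.486. Cela3a at 0.982 and Ctrc at 1.297 were farthest, yet both enter that mean with the same weight as the rest. Of the members only Cela2a lay nearer to the mean than Cst3, so the listed genes match an average that most members do not follow closely. The nearest to Cela2a alone were Adi1 (0.096), Gsto1 (0.102) and Galnt1 (0.102).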

How the data were processed

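RNA sequencing counts of 3 control and 3 Trip12 knockout acinar preparations were used. The authors deposited raw counts per gene and library, unstranded and for each strand. STAR 2.7.10a and build GRCm39 are named in the submitters' processing notes, and the annotation is not given in the sources used here. The 4 leading rows of each table name no gene and stayed out of library sizes and tests. Over the libraries they held 9.7% to 13.0% of reads as unmapped, 21.6% to 28.4% at several places, 0.893% to 2.18% outside genes and 3.29% to 3.63% as ambiguous. GENCODE M21 (GRCm38) gave symbols for 52133 of 55414 identifiers (94.1%), transcript lengths and overlaps between genes, and no coordinates from it are printed. Unstranded counts were tested in edgeR 4.0.16 (R 4.3.3) with filterByExpr, TMM, estimateDisp, the robust quasi-likelihood F test and Benjamini-Hochberg adjustment over 13115 genes. A gene is called at an adjusted p under 0.05. log2 CPM used a prior count of 2, and an SE is the fold change divided by the square root of F. The script was tested on simulated data with the spread between libraries capped and no sex or replicate structure. That test does not cover genes as variable as Ctrc and Cela3a. DESeq2 1.42.0 and limma 3.58.1 were alternatives, with other scalings, filters, strand columns, a covariate for the sex read from Xist and Y-linked counts, and fits without each library. Deviations of same-numbered libraries correlated at 0.630, 0.455 and 0.285 across genes, all over 0.1. Control 3 with knockout 2 also passed 0.1, at 0.21, and the other mismatched pairs lay between -0.496 and -0.13. These values do not settle whether the numbers in the labels mark pairs. The reported fit did not treat them as pairs. The block, which does, was an alternative fit and is given where it changes a call. The closest libraries differed at 26.3 chi-square per degree of freedom, so each was counted as 1 sample. The members and lists were chosen with earlier results of these data known. Genes were named by rule: Trip12, the members, list genes called with or without the block (except 1 that is not reported here), and the genes nearest in profile. Casp9, Ctrcos and the genes of the closing section were chosen after their values were seen.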

Additional observations from a re-analysis of the deposited data

How the results depend on the processing

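Of 147 alternative values of the members' log2 fold changes, 124 kept direction and call, 21 passed the threshold where the reported fit did not, and 2 reversed, Ctrb1 (0.11) and Cela1 (0.02) with library totals. That scaling raised the median of all tested genes from 0.02 to 0.43 and the calls from 124 (49.2% higher) to 1519 (94.9% higher). Calls over all genes were also 594 with DESeq2 (43.6% higher), 850 without a filter, 210 where each library had to hold 10 counts, 785 with the replicate block, 396 and 832 with the block and no pair 1 or 3, and 21 with the sex covariate (33.3% higher). Of the 7 members, 0 in the reported fit, the number called was 2 with library totals (Cela2a and Cela3a), 4 with DESeq2, 3 with the block and no pair 3 (Ctrc, Cela2a and Cela3a), and 1 (Cela2a) with upper quartile factors, without a filter, with that minimum of 10 counts, with either strand's counts, with the replicate block, and with the block and no pair 1. The block changed no other member's call. Leaving out 1 library gave 20 (without control replicate 2) to 461 (without control replicate 1) calls over all genes and 0 to 4 members called, the 4 being Ctrl, Cela1, Cela2a and Cela3b without control replicate 1. In that fit, as with the block and no pair 1, sex and genotype were fully confounded. Without knockout replicate 3 only Ctrc was called. The difference in the summed share was -2.69 percentage points, -3.43 to -1.94 without 1 library, -0.0976 with multimapped reads in the denominator and -22.0 per 100 counts outside the enzymes. All 56 alternative values of the make-up moved by less than the spread between replicates. They came only from leaving out 1 library or from using 1 strand's counts. Such changes can hardly move a group mean by more than that spread, so this is no test of the make-up. The cause of these shifts was not tested. The block without a pair was chosen after seeing the data. Depth does not limit these genes, apart from Cela3a with 35 to 643 counts.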

Other observations

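The split of Ctrc within the knockout group was looked for in other genes, with a rule chosen after its values were seen: knockout replicates 1 and 2 at least 4-fold below the lowest of the other 4 libraries, which had to reach 1 CPM. Of 13115 tested genes 4 met it, Ctrc, Gm4735, Atp6v0c-ps2 and Eno1b. Gm4735, a processed pseudogene, held 43, 32 and 30 counts in controls 1 to 3, against 2, 3 and 67 in knockouts 1 to 3. Atp6v0c-ps2, of the same class, held 210, 192 and 89 counts in the controls, against 10, 5 and 120 in the knockouts. Eno1b, classed as protein coding, held 62, 52 and 56 counts in the controls, against 2, 0 and 71 in the knockouts. Ctrc, with at least 7885 counts in every library, was by far the most abundant of the 4.

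Of the protein-coding genes compared, Padi2 had the centred profile nearest to Ctrc, at a root-mean-square difference of 1.058 on the log2 scale over the 6 libraries, which is not close. Padi2 encodes a peptidylarginine deiminase and lies on chromosome 4 like Ctrc, Cela2a, Cela3a and Cela3b. It measured 49.4, 63.1 and 69.5 CPM in the controls, against 8.98, 17.8 and 18.4 CPM in the knockouts, lower in every knockout library and without the split.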
